A study of Homo sapiens with 4 samples.

Results

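MHC class I antigen presentation was described through 9 genes, taken by symbol from the tables of all 4 libraries: HLA-B, HLA-C, HLA-E, B2M, TAP1, TAP2, TAPBP, PSMB8 and PSMB9. They are 9 of 35979 gene symbols, and every one had a mean normalized count of at least 20 over the libraries, as did 14940 symbols in all. Poly(A) RNA came from NCI-H1048 cells, a human line established from a small cell lung cancer. The labels give 2 libraries as COLCA2 knockout, each from cells that received a different guide RNA (gRNA), 1 library as POU2F3 knockout from cells with a POU2F3 gRNA, and 1 library as WT from cells with a non-targeting gRNA. All 4 libraries share the line and the library kit, and no further treatment is listed. The labels do not say whether the cells were clones or pools, how long after the gRNA they were taken, or whether the libraries came from separate cultures, so the spread between guides may be technical. The COLCA2 libraries are called guide 1 and guide 2 below, and the non-targeting library the control.

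MHC class I molecules show peptides from inside the cell to cytotoxic T cells. The immunoproteasome cuts proteins into peptides, the TAP transporter carries the peptides into the endoplasmic reticulum, and chaperones there load them onto a heavy chain bound to the light chain B2M. Most of these genes are induced by interferon, and low class I expression is a known trait of many small cell lung cancers, above all of neuroendocrine ones.

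With 1 non-targeting and 1 POU2F3 gRNA library, a difference from the non-targeting library has no replicate check and no test of the conditions. Values are normalized counts, and ratios are log2 ratios of the normalized count plus 1. The gap between the COLCA2 guides is the only spread within a group. In bulk RNA, fewer cells of a kind and less RNA per cell cannot be told apart. For COLCA2, ± gives the SD over the 2 guides, and 95% intervals of a fold are exact (from the binomial share of the 2 libraries' reads) and cover counting error only.

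The targeted gene POU2F3 had 1449 normalized counts in its own gRNA library, 3677 and 2351 with guides 1 and 2, and 14602 in the control. COLCA2 had 3119 and 3541 with its guides, 1393 with POU2F3 gRNA and 5585 in the control, so each targeted transcript was lower in the libraries labelled for it, and the POU2F3 gRNA library had the least COLCA2. The libraries held 21587741 to 29632382 reads assigned to genes, of which each member had 502 to 27843. The summed level of 9 tuft cell markers was 10180 to 15414 in the targeted libraries and 46994 in the control, and 7 of them passed the minimum (TRPM5 and CHAT did not). The 9 include the targeted gene POU2F3 itself, with 14602 of the control sum. SOX9, named after its values were seen, had 17848 of it. The 7 markers past the minimum were each lower in all 3 libraries in which the class I heavy chains were higher. Their part in the members' difference was not tested. None of 10 immune cell markers passed the minimum, their summed level was 34.4 to 51.8, and CD3E, CD3D and CD2 were at 0 in every library.

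The heavy chains and B2M were higher in every gRNA-targeted library, and the transporter and immunoproteasome subunits lay on both sides of the non-targeting level. HLA-B, HLA-C, HLA-E and B2M had log2 ratios of 0.41 to 0.83 over the 3 targeted libraries, whereas TAP1, TAP2, PSMB8 and PSMB9 had -0.22 to 0.39. TAPBP lay between them at 0.15 to 0.39. No member was 2-fold higher or lower in either comparison with the non-targeting library, where 6.73% of the 14940 genes were at least 2-fold higher and 3.05% at least 2-fold lower with POU2F3 gRNA, and 5.79% and 2.02% with both COLCA2 guides. The guides themselves were 2-fold apart for 2.22% of genes and for no member.

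The regulatory sequences of the genes on either side of this split are shown for reference, since the promoters of class I genes hold well-known elements for NF-kB, interferon regulatory factors and the CCAAT-binding factor NF-Y. They are the 250 bases before the RefSeq transcription start (GRCh38.p14), 5′ to 3′ on the strand of the gene, and 8 of the 9 members had an entry. Capitals mark matches, on either strand, to GAAA, any 2 bases, GAAA (core of the interferon-stimulated response element), TTCNNNGAA (STAT type), GGGA, any base, TTTCC or GGGGATT followed by CCCC (NF-kB type), TGACGTCA or TGACGCA (X2 box type), CCAAT (Y box) and ATGCAAAT (the octamer of POU2 factors). HLA-B lies on the minus strand at chr6:31357180-31357429, HLA-C on the minus strand at chr6:31272093-31272342, B2M on the plus strand at chr15:44711267-44711516, TAP1 on the minus strand at chr6:32853705-32853954 and PSMB9 on the plus strand at chr6:32853942-32854191.
HLA-B: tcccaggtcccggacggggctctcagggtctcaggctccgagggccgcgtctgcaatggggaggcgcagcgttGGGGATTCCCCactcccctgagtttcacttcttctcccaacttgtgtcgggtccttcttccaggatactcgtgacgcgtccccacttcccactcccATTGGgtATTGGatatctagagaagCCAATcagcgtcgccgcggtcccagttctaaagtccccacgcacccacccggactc
HLA-C: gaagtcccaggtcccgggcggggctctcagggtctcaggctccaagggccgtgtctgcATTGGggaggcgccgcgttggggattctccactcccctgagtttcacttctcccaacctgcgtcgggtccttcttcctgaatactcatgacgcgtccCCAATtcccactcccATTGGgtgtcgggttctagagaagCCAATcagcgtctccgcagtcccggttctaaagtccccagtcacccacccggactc
B2M: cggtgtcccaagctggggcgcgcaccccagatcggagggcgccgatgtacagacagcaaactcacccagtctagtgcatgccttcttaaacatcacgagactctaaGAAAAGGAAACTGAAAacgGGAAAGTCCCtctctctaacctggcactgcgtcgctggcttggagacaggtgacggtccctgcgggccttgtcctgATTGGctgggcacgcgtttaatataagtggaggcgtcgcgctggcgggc
TAP1: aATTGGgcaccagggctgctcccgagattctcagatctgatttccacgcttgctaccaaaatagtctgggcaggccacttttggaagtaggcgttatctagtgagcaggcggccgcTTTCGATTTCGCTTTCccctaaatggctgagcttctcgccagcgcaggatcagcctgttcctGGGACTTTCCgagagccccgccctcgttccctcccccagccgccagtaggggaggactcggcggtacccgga
PSMB9: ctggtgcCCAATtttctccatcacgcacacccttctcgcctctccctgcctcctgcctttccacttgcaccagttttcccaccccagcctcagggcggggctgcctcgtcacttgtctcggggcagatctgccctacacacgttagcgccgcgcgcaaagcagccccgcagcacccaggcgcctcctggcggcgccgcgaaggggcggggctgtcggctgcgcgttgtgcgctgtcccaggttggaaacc
The HLA-B and HLA-C sequences were identical at 226 of 254 aligned positions (89.0%). Of these sequences only that of HLA-B held the GGGGATT form of the NF-kB motif, 177 bases before the start. B2M held overlapping interferon-element matches from 144 and 138 bases before the start, next to an NF-kB match of the GGGA form at 125. TAP1 held the same pair of motifs, from 134 and 128 bases and at 72 bases before the start. TAP1 and PSMB9 are transcribed away from each other, with 487 bases between these starts, and the PSMB9 sequence held CCAAT alone. The interferon-element and NF-kB matches of TAP1 also lie between these starts, outside the 250 bases printed for PSMB9. In the full windows, which run to 50 bases past the start, the interferon-element core occurred in 5 of the members' 10 windows (1 each of B2M, TAP1, TAP2, TAPBP and PSMB8), against 3.57% of all 35116 windows of that length. The GGGA form of the NF-kB motif occurred for B2M and TAP1 (0.558% of all windows) and the GGGGATT form for HLA-B (0.0313%). CCAAT occurred in 5 of the 10, against 34.6% of all windows, and the TAP1 and PSMB9 matches are the same bases read from either side. TTCNNNGAA was found in a second TAP1 window, at another start, and in a PSMB8 window (7.66% of all windows). TGACGTCA (1.85% of all windows), TGACGCA (2.47%) and the octamer ATGCAAAT (1.77%) were not in any member's window. Only exact strings were searched, so a missing match is not a missing element. HLA-B and HLA-C both hold tgacgcg, 1 base off TGACGCA, and HLA-C holds ggggattctcc, 1 base off the GGGGATT form of the NF-kB motif. The part of these motifs in the members' differences was not tested. A match describes letters and not binding.

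HLA-B encodes a classical heavy chain, which presents peptides to T cells. The gene (ENSG00000234745) lies on the minus strand of chromosome 6, where the 8 exons of its principal transcript span 31353872 to 31357187 in GRCh38. Its normalized count was 25313 with guide 1, 25326 with guide 2, 23370 with POU2F3 gRNA and 16735 in the control. The targeted libraries were all higher, and the guides were almost level. The folds were 1.51 (1.48 to 1.54) with each COLCA2 guide and 1.40 (1.37 to 1.42) with POU2F3 gRNA, and the mean log2 ratio with the guides was 0.60 ± 0.00051 (SD, n = 2).

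HLA-C (ENSG00000204525, minus strand of chromosome 6, principal transcript at 31268749 to 31272086) encodes the classical heavy chain that is also a main ligand of killer-cell immunoglobulin-like receptors. Its normalized counts were 21186 and 21798 with guides 1 and 2, 19589 with POU2F3 gRNA and 14793 in the control. The order of the libraries was that of HLA-B. The mean log2 ratio was 0.54 ± 0.029 (SD, n = 2) with the guides and 0.41 with POU2F3 gRNA, the smallest of the 4 genes.

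HLA-E (ENSG00000204592, plus strand of chromosome 6 at 30489467 to 30494205) encodes a non-classical heavy chain that presents leader peptides of other class I chains to natural killer cells. It had normalized counts of 3528 and 3538 with guides 1 and 2, 3497 with POU2F3 gRNA and 2255 in the control. The 3 targeted libraries lay within counting error of each other, and all were above the non-targeting library. The folds were 1.56 (1.48 to 1.65), 1.57 (1.49 to 1.66) and 1.55 (1.47 to 1.63).

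B2M (ENSG00000166710) encodes the light chain that every class I heavy chain needs to reach the surface, and it is the only member outside chromosome 6, at chromosome 15, plus strand, 44711487 to 44718877. Its normalized counts were 21044 with guide 1, 22426 with guide 2, 19447 with POU2F3 gRNA and 12624 in the control. It was the member with the largest COLCA2 ratio, a mean log2 of 0.78 ± 0.065 (SD, n = 2), or folds of 1.67 (1.63 to 1.70) and 1.78 (1.74 to 1.82). With POU2F3 gRNA the fold was 1.54 (1.51 to 1.57). Heavy chains and B2M were higher together, and their ratio within a library differed less from the control than either gene did. There were 1326 HLA-B counts per 1000 B2M counts in the control, and 1203, 1129 and 1202 with guides 1, 2 and POU2F3 gRNA.

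**Figure D1:**
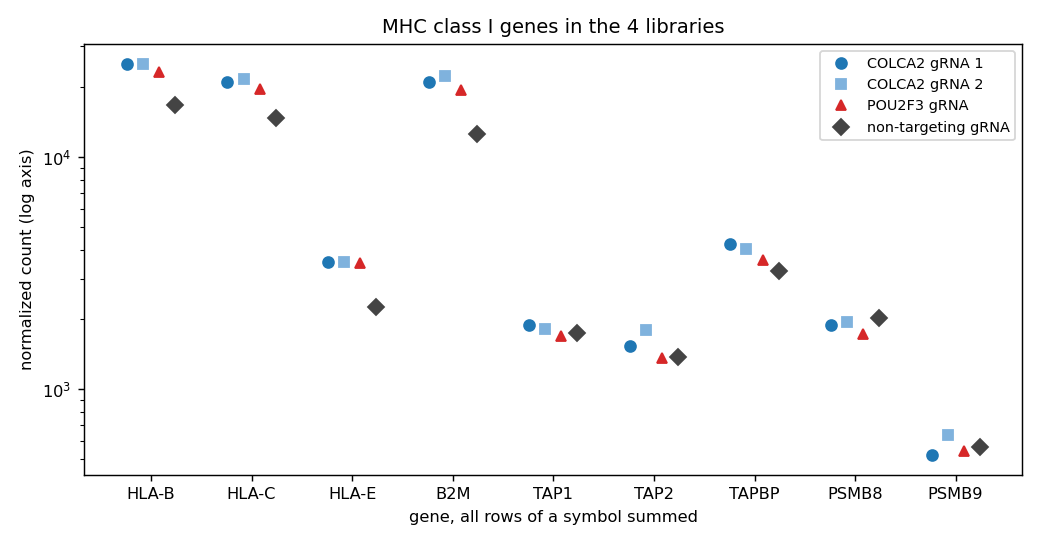
Normalized count (log axis) of each member, all rows of a symbol summed, in the 4 libraries (1 point per library). For HLA-B, HLA-C, HLA-E and B2M the non-targeting library is the lowest, and for PSMB8 it is the highest, at 2026.

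With all rows of a gene summed, the transporter subunits were closer to the control than the heavy chains. TAP1 (ENSG00000168394, minus strand of chromosome 6 at 32845209 to 32853978) encodes a subunit of the peptide pump. Its normalized counts were 1897 and 1828 with guides 1 and 2, 1703 with POU2F3 gRNA and 1751 in the control. The non-targeting value lay between those of the targeted libraries, and the mean log2 ratios were 0.088 ± 0.038 (SD, n = 2) with the guides and -0.040 with POU2F3 gRNA. TAP1 had 139 counts per 1000 B2M counts in the control and 90.2, 81.5 and 87.6 with guides 1, 2 and POU2F3 gRNA, lower in all 3 targeted libraries.

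TAP2 (ENSG00000204267, minus strand, principal transcript at 32821833 to 32838727) encodes the partner subunit. It had 1531 and 1797 with guides 1 and 2, 1361 with POU2F3 gRNA and 1374 in the control. Guide 2 was the highest and POU2F3 gRNA was level with the control. Guide 1 minus guide 2 was -0.23 on the log2 scale, close in size to the mean log2 ratio of 0.27 ± 0.16 (SD, n = 2). This placing of the transporter rests on summing the rows. With only the row of the largest mean, TAP2 had 0.40 with the guides and 0.27 with POU2F3 gRNA (-0.014 when summed), near HLA-C at 0.53 and 0.34 by the same choice, and TAP1 had 0.24 and 0.019. TAPBP (ENSG00000231925, minus strand, principal transcript at 33303573 to 33314212) encodes tapasin, which holds empty class I molecules at the transporter. Its counts were 4238 and 4023 with guides 1 and 2, 3599 with POU2F3 gRNA and 3243 in the control. All 3 targeted libraries were higher, with folds of 1.31 (1.25 to 1.37) and 1.24 (1.18 to 1.30) with the guides and 1.11 (1.06 to 1.16) with POU2F3 gRNA.

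PSMB8 (ENSG00000204264, minus strand, principal transcript at 32840717 to 32844047) encodes an inducible catalytic subunit that replaces PSMB5 in the immunoproteasome. It had 1898 and 1960 with guides 1 and 2, 1740 with POU2F3 gRNA and 2026 in the control. It was the only member whose non-targeting value was the highest, with log2 ratios of -0.071 ± 0.033 (SD, n = 2) for the guides and -0.22 for POU2F3 gRNA. PSMB9 (ENSG00000240065, plus strand, principal transcript at 32854161 to 32859585) encodes the subunit that replaces PSMB6. It had 520 and 634 with guides 1 and 2, 543 with POU2F3 gRNA and 567 in the control, from 502 to 647 reads per library. The guides fell on opposite sides of the non-targeting library, so no direction can be given for PSMB9.

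**Figure D2:**
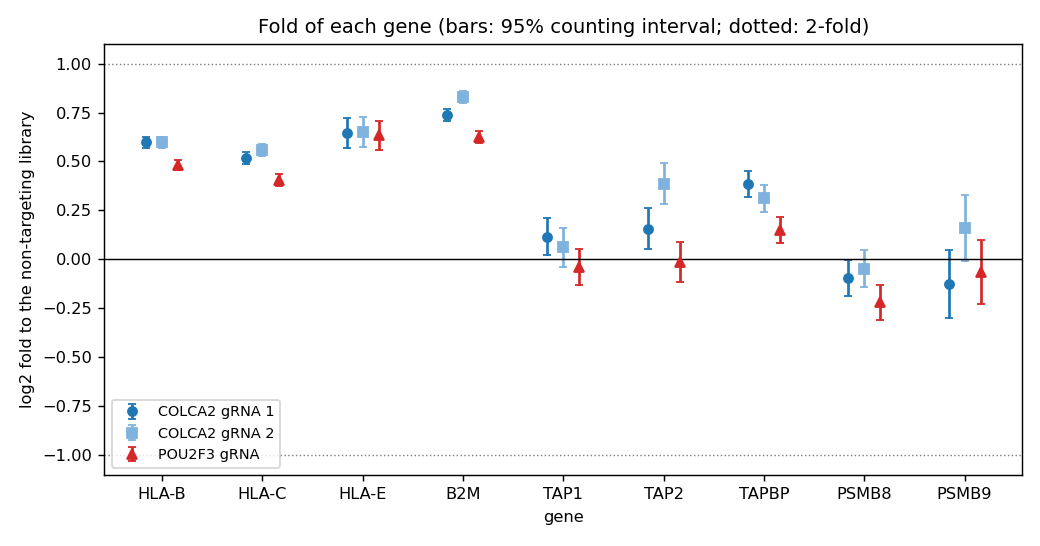
Log2 fold of each member to the non-targeting library for COLCA2 gRNA 1 and 2 and POU2F3 gRNA, with 95% counting intervals as bars and 2-fold as dotted lines. The points of HLA-B, HLA-C, HLA-E and B2M lie between 0.41 and 0.83, and those of PSMB8 and PSMB9 between -0.22 and 0.16.

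Over the 9 members the median log2 ratio was 0.35 with the mean of the COLCA2 guides and 0.15 with POU2F3 gRNA, beside -0.0086 and -0.0037 over all 14940 genes. Of the 9, 5 were above the non-targeting library in all 3 targeted libraries (HLA-B, HLA-C, HLA-E, B2M and TAPBP), against 34.4% of all genes. A log2 ratio of at least 0.62 in all 3 libraries, the smallest value of B2M, was reached by 7.68% of all genes. For HLA-C, with 0.41, it was 11.5%. At a 1.5-fold threshold, HLA-E and B2M passed with POU2F3 gRNA, where 12.2% of all genes were that much higher, and no member was that much lower (7.69% of genes). HLA-B, HLA-E and B2M passed with both COLCA2 guides, where 9.71% were, and again no member was lower (6.03%). No member was 1.5-fold apart between the guides (7.03% of genes).

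The whole reads recovered from the values also allowed a count model, edgeR with its quasi-likelihood test and a Benjamini-Hochberg adjusted p under 0.05. For COLCA2 it called HLA-B, HLA-C, HLA-E, B2M and TAPBP higher and no member lower, with adjusted p-values from 0.0012 (B2M) to 0.041 (TAPBP), while 11.4% of all genes were called higher and 7.51% lower. For POU2F3 it called HLA-B, HLA-C, HLA-E and B2M higher, with 8.45% of all genes called higher and 3.98% lower. The spread in this model rests on 1 residual degree of freedom, that between the COLCA2 guides, and the control is the same single library in both comparisons, so these p-values compare libraries and not conditions.

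The POU2F3 gRNA library was then set against the COLCA2 libraries directly, without the non-targeting library. For 8 of the 9 members it was below both guides, PSMB9 being the exception. The same held for 38.9% of all genes and 45.6% of those with a mean of at least 1000. The members' differences from the mean of the guides were small, from -0.29 (TAP2) to -0.015 (HLA-E) with a median of -0.13 on the log2 scale. The 16 proteasome and reference genes had a median of -0.25 in the same comparison, and their part in the members' difference was not tested. No member was 2-fold apart from both guides, where 0.442% of all genes were above and 0.924% below, nor 1.5-fold apart (1.92% and 2.5%). The edgeR model called no member here, with 0.107% and 0.234% of genes called higher and lower. For HLA-B the difference was -0.12 on the log2 scale, and guide 1 minus guide 2 was -0.00073 (95% counting interval -0.027 to 0.026). For B2M the 2 values were -0.16 and -0.092, and for TAP2 -0.29 and -0.23. The median size of the gap between the guides was 0.13 over all 14940 genes, and 0.086 over those with a mean of at least 1000. A difference of -0.12 is thus of the size of an ordinary gap between the guides over all genes. The median gap was smaller, at 0.054, over the 9 members and 0.022 over HLA-B, HLA-C, HLA-E and B2M.

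Levels can be compared between genes per kilobase of the principal transcript in GENCODE release 29 (the longest where several are tied), an approximation since the counter's effective lengths are not given. In the non-targeting library HLA-B had 10818 normalized counts per kilobase, HLA-C 9631, B2M 7404, PSMB8 1803, TAPBP 1718, HLA-E 867, PSMB9 725, TAP1 592 and TAP2 550. In the COLCA2 libraries HLA-B (16363 and 16371), HLA-C (13793 and 14191) and B2M (12343 and 13153) kept that order without overlap. TAPBP was above PSMB8 there, at 2245 and 2131 against 1689 and 1744. PSMB9, at 666 and 811, was above TAP1, at 641 and 618, while TAP2, at 613 and 720, overlapped both of them.

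The counts of these genes are divided over annotated copies, and this touches every value above. The 9 symbols had 46 rows, of which 6 were at 0 in every library and 6 were at 0 in only some. The row on the primary assembly held from 0.766% (TAPBP) to 97.5% (B2M) of a gene's count in the control. HLA-B divided its count in nearly the same shares in every library, with 1.64% on the primary row in the control and 1.20%, 1.68% and 1.31% with guides 1, 2 and POU2F3 gRNA. TAP2 did not. One TAP2 row (ENSG00000206299) had 420 reads with guide 2 and was listed at 0 in the other libraries, and another (ENSG00000232326) was listed at 0 except in the control, where it had 367 reads.

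PSMB8 shows what the summing changes. Its primary row had 125 and 186 reads with guides 1 and 2, 82 with POU2F3 gRNA and 46 in the control, and taken alone it gave a mean log2 ratio of 1.91 with the guides, past 2-fold with both. Another PSMB8 row (ENSG00000235715) was listed at 0 with both COLCA2 guides and had 187 and 367 reads with POU2F3 and the non-targeting gRNA. With the row of the largest mean it had 0.35 with the guides and 0.067 with POU2F3 gRNA. Summed, PSMB8 was at -0.071. Reads could also be exchanged between heavy chain genes, which are close relatives. Whether counting used the strand is not given in the sources used here, so reads of PSMB8 and of its antisense neighbour PSMB8-AS1, of TAP1 and the PSMB9 gene model (32844136 to 32859585) that spans it on the other strand, cannot be told apart. The HLA-B gene model (31269491 to 31357188) likewise reaches into HLA-C on the same strand.

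**Figure D3:**
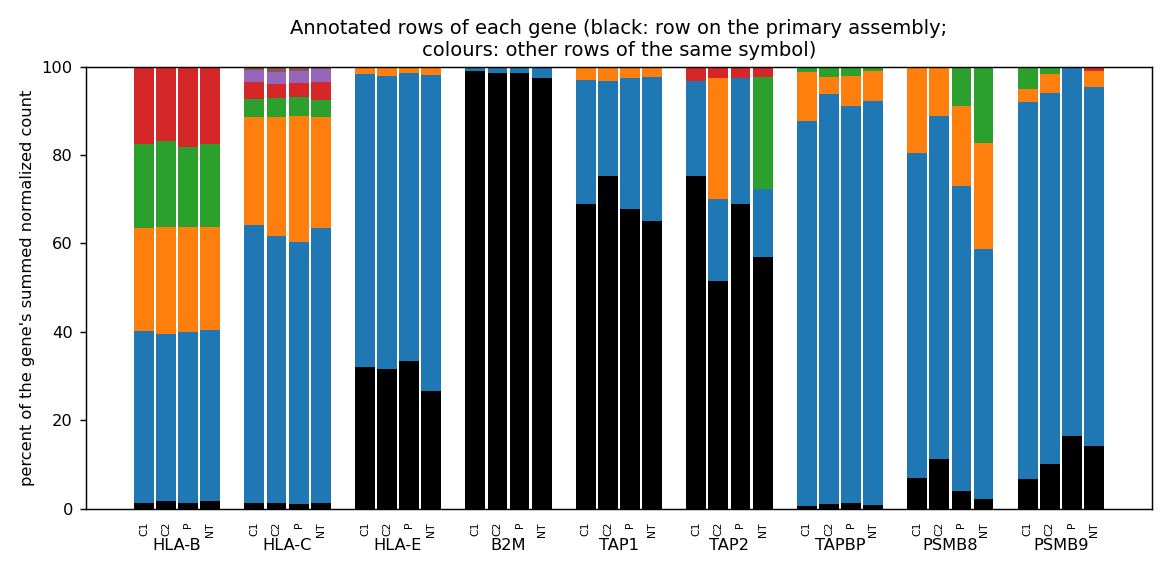
Share of each member's summed normalized count held by each annotated row, in percent, for COLCA2 gRNA 1 (C1), COLCA2 gRNA 2 (C2), POU2F3 gRNA (P) and the non-targeting gRNA (NT); black is the primary-assembly row and colours are other rows of the symbol. The shares are alike across libraries for HLA-B and HLA-C and differ for TAP2 and PSMB8.

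The rest of the class I pathway was described through 23 further genes, of which 22 passed the expression minimum. None was 2-fold higher or lower with POU2F3 gRNA (6.73% and 3.05% of all genes) or with both guides (5.79% and 2.02%). Their median log2 ratio was 0.19 with the COLCA2 guides and 0.055 with POU2F3 gRNA. Of the 22, 13 were above the non-targeting library in all 3 libraries, against 34.4% of all genes, and 2 were below it in all 3. HLA-F, a non-classical heavy chain, had 388 and 547 with the guides, 365 with POU2F3 gRNA and 217 in the control. Its mean log2 ratio of 1.08 ± 0.35 (SD, n = 2) rests on gRNA 2, since gRNA 1 alone gave 0.84. Of the loading factors, CALR (calreticulin) had log2 ratios of 0.39 ± 0.066 (SD, n = 2) with the guides and 0.22 with POU2F3 gRNA. PDIA3, the disulfide isomerase of the loading complex, had 0.15 ± 0.0068 and 0.039. The trimming peptidase ERAP1 had 0.087 ± 0.10 and -0.14, an SD larger than the mean.

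The catalytic subunits were compared as inducible against constitutive partner within a library. No scaling of the library can move this ratio, but the choice of rows can. PSMB8 had 399 counts per 1000 PSMB5 counts in the control, and 335, 357 and 378 with guides 1, 2 and POU2F3 gRNA. This direction rests on summing the rows. With only the row of the largest mean, the log2 ratios of PSMB8 were 0.35 with the guides and 0.067 with POU2F3 gRNA. Those of PSMB5 were lower, at 0.14 and -0.14. With rows summed, PSMB9 had 160 per 1000 PSMB6 in the control, and 144, 181 and 190 in the targeted libraries. The third inducible subunit, PSMB10, replaces PSMB7 and was on the other side of the control from the summed PSMB8. It had 54.9 per 1000 PSMB7 in the control and 80.6, 99.3 and 65.2 in the targeted libraries. PSMB10 itself had 422 and 463 with guides 1 and 2, 278 with POU2F3 gRNA and 253 in the control, so the COLCA2 libraries stood apart and POU2F3 gRNA was near the control. The constitutive partners had log2 ratios with the guides of 0.14 ± 0.033 (PSMB5), 0.0077 ± 0.030 (PSMB6) and 0.10 ± 0.12 (PSMB7) (SD, n = 2), and with POU2F3 gRNA of -0.14, -0.31 and -0.11.

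**Figure D4:**
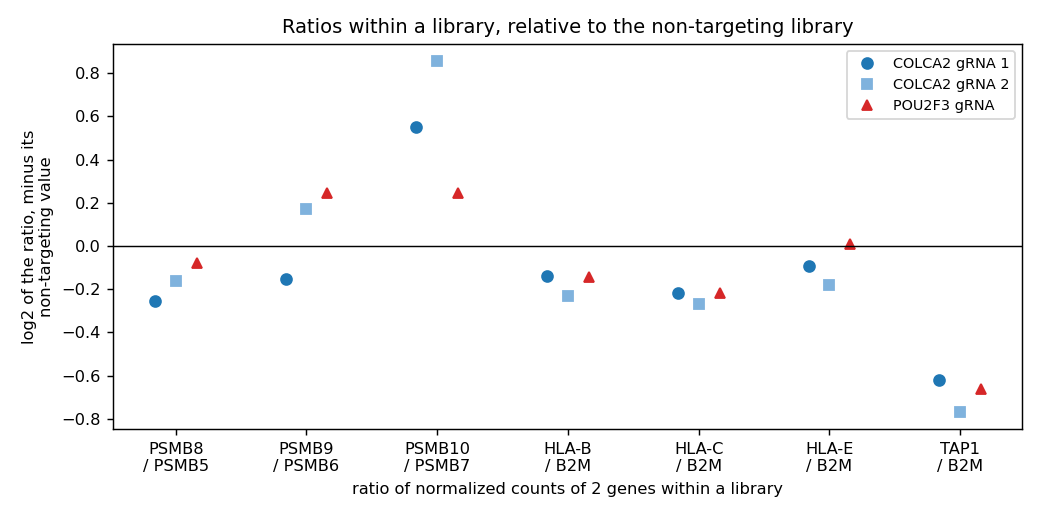
Log2 ratio of the normalized counts of a pair of genes within a library, minus its value in the control, for COLCA2 gRNA 1 and 2 and POU2F3 gRNA. With all rows of a symbol summed, PSMB10 over PSMB7 is above 0 and PSMB8 over PSMB5 and TAP1 over B2M are below 0 in all 3 libraries.

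Regulators of class I transcription differed in direction. Of 23 regulators, all past the minimum, IFNGR1, a chain of the interferon-gamma receptor, was the only one at least 2-fold higher, with 1139 and 1334 with guides 1 and 2, 1390 with POU2F3 gRNA and 518 in the control. Over all genes 6.73% were at least 2-fold higher with POU2F3 gRNA and 5.79% with both guides, so 1 of 23 does not exceed these shares. No regulator was 2-fold lower (3.05% and 2.02% of all genes). The medians were 0.19 with the guides and 0.097 with POU2F3 gRNA. NLRC5, the class I transactivator, was lower in all 3 targeted libraries, with 369 and 323 with guides 1 and 2, 381 with POU2F3 gRNA and 540 in the control. IRF1, a transcription factor of the interferon response, had 618 and 726 with the guides but 391 with POU2F3 gRNA and 403 in the control. Only the COLCA2 libraries were therefore above the control for IRF1, and the difference of POU2F3 gRNA from the mean of the guides was -0.77 on the log2 scale, beyond their SD of 0.16. RFX5, a subunit of the factor that binds the X box, had -0.11 ± 0.067 (SD, n = 2) with the guides and 0.099 with POU2F3 gRNA.

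Of 24 interferon-induced genes, 22 passed the minimum, and their medians were 0.59 with the COLCA2 guides and 0.56 with POU2F3 gRNA. With POU2F3 gRNA 7 were at least 2-fold higher and 1 lower, against 6.73% and 3.05% of all genes. With both guides 8 were higher and none lower, against 5.79% and 2.02%. Of the 22, 14 were above the control in all 3 targeted libraries, against 34.4% of all genes, and 3 were below it in all 3. GBP1, a guanylate-binding protein, had 686 and 755 with guides 1 and 2, 483 with POU2F3 gRNA and 49.7 in the control. GBP2, of the same family, had 264, 310 and 180 against 12.4, and CXCL10, a chemokine for T cells, had 50.8, 80.0 and 36.1 against 1.91, which is 2 reads. The CXCL10 folds of 26.6 (6.98 to 226), 41.9 (11.2 to 353) and 18.9 (4.92 to 161) are therefore wide, and its log2 ratio with the guides was 4.48, and 2.63 with a pseudocount of 10. GBP2 had 4.42, and 3.73 with a pseudocount of 10. IFITM1, IFITM3, IFI6 and IFI44, antiviral or interferon-induced proteins, were also past 2-fold in all 3 targeted libraries, with log2 ratios from 1.02 to 1.82. With POU2F3 gRNA the 2-fold call was lost for IFI6 (0.986) and IFITM3 (0.997) when libraries were scaled to equal totals, and for IFI6 (0.991) with a pseudocount of 10. ISG15, a ubiquitin-like protein, was past 2-fold with both guides and had 0.66 with POU2F3 gRNA. IFIT2, an RNA-binding antiviral protein, was the gene that was at least 2-fold lower with POU2F3 gRNA, at 48.7 against 141. The guides differed widely for IFIT2, with 80.9 and 32.9. GBP4, of the GBP1 family, and USP18 were the other genes of this list below the control in all 3. Both were named after their values were seen. GBP4 had 81.9, 76.4 and 80.6 with guides 1, 2 and POU2F3 gRNA against 95.5. USP18 had 563, 479 and 448 against 801. The 16 proteasome and reference genes had no member past 2-fold and medians of 0.0033 and -0.20. Among them ACTB, named after its values were seen, encodes beta-actin and had log2 ratios of 0.78, 0.77 and 0.50 with guides 1, 2 and POU2F3 gRNA, higher in all 3 libraries by about as much as B2M and HLA-B.

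**Figure D5:**
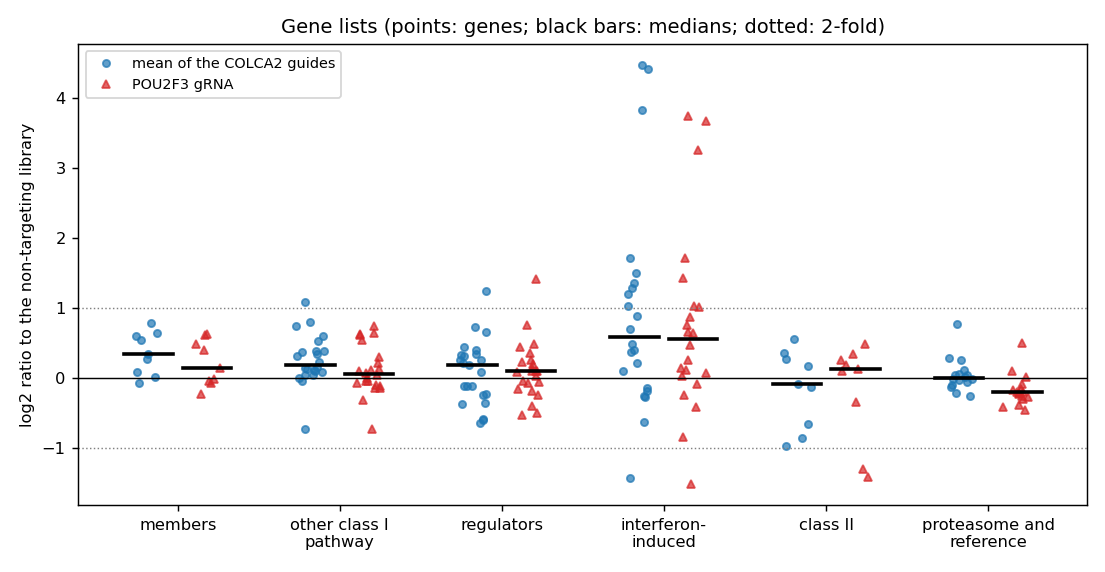
Log2 ratio to the non-targeting library of each gene past the expression minimum in 6 gene lists, for the mean of the COLCA2 guides (circles) and POU2F3 gRNA (triangles), with medians as black bars. GBP1 of the interferon-induced genes lies at 3.83 for the guides, and the 9 members stay below 0.79. The highest point, CXCL10, rests on 2 control reads.

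The genes whose pattern was nearest to the members' median profile (log2 ratios of 0.39, 0.39 and 0.15 with guides 1, 2 and POU2F3 gRNA) were DDAH1, MAPK12, CSTB, PRR13 and BOLA3. Their Euclidean distances over the 3 ratios, which share 1 control, were 0.014, 0.025, 0.027, 0.034 and 0.034, among 12150 genes with a mean of at least 100. Of those genes 543 lay within 0.2 of the profile.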

How the data were processed

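Poly(A) RNA of NCI-H1048 cells was sequenced in 4 libraries. Per the submitters' processing notes, Salmon, DESeq2 and the hg38 build were used, with roles, versions and annotation not given in the sources used here. Per the file headers the authors deposited a normalized count for every gene, treated here as a linear signal. All 38145 values of a library (100%) came out as whole reads (within 0.01 reads), so the deposited signal equals whole reads divided by 1 factor per library. Salmon estimates counts, so these reads may be rounded estimates.

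All rows of a symbol were summed (1149 symbols had more than 1 row). Genes with a mean of at least 20 were kept, and ratios used a pseudocount of 1. At least 2-fold was counted without a test, and for COLCA2 both guides had to pass. On the recovered reads edgeR 4.0.16 (quasi-likelihood, TMM) called 1709 of 14940 genes higher and 1122 lower for COLCA2, and 1263 and 595 for POU2F3. Scripts were tested on simulated data.

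Members and lists were chosen with earlier results of these data known. Named genes are the members, the targeted genes, 13 preset genes, list genes past 2-fold, and the 5 nearest in pattern. Some of the preset genes are not reported here. Genes in the closing part were named after their values were seen. Gene positions are from GENCODE release 29 (GRCh38, matching hg38) and promoters from RefSeq (GRCh38.p14).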

Additional observations from a re-analysis of the deposited data

How the results depend on the processing

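Filters on low values cannot move a member, since all 9 pass them. Of 252 values of single members under the other alternatives, 215 moved by less than 0.093 on the log2 scale, the pooled SD of the members between the COLCA2 guides, and 17 changed sign, none of them a heavy chain or B2M value against the control. All 72 values of HLA-B, HLA-C, HLA-E and B2M against the non-targeting library stayed positive, between 0.37 and 0.83 when rows were summed and between 0.15 and 0.96 when 1 row was used. The counts of members past 2-fold, 0 in each comparison and direction, changed with the threshold, the test or the rows. At 1.5-fold, 2 members were higher with POU2F3 gRNA and 3 with both guides. The edgeR test called 4 and 5 higher. With the primary-assembly row alone, an alternative chosen after seeing the data, 1 member (PSMB8) was higher with both guides, and the members' median was 0.27 with POU2F3 gRNA and 0.48 with the guides. With the row of the largest mean the POU2F3 gRNA median was 0.27. Without a guide, the median with COLCA2 was 0.39 either way, and that of POU2F3 minus COLCA2 was -0.16 without gRNA 1 and -0.12 without gRNA 2. PSMB9 with COLCA2 was 0.16 without gRNA 1 and -0.12 without gRNA 2. Scaling to equal totals moved the median of all genes most, to -0.078 with the COLCA2 guides. No paired analysis was possible, since the labels link no library of 1 gRNA group to a library of another. With 502 to 647 reads, PSMB9 had a counting interval of 0.855 to 1.07 for its POU2F3 gRNA fold, so a change of that size was not detectable at this depth.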

Other observations

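Class I-like genes, which share the fold of class I molecules but do not present the usual peptides, did not move as one. MR1, which presents vitamin metabolites to mucosal T cells, had 1170 and 1102 with guides 1 and 2, 1220 with POU2F3 gRNA and 786 in the control, higher in all 3 targeted libraries. HFE, a regulator of iron uptake, was also higher in all 3, with 313, 350 and 404 against 262. FCGRT, the heavy chain of the neonatal Fc receptor, had 1321, 1270 and 1244 against 1333. MICA, a stress-induced ligand of a natural killer cell receptor, had 659, 653 and 590 against 607, with POU2F3 gRNA below and both guides above the control. MICB, a ligand of the same receptor, was lower in all 3 targeted libraries, with 126, 114 and 120 against 199. TAPBPL, a relative of tapasin that edits peptides, was higher in all 3, with 370, 396 and 358 against 228.

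Of 9 class II genes, which present peptides from outside the cell, all passed the expression minimum. None was 2-fold apart from the non-targeting library with both guides, where 5.79% of all genes were higher and 2.02% lower. HLA-DPA1 and HLA-DPB1 were at least 2-fold lower with POU2F3 gRNA, against 3.05% of all genes. Their log2 ratios were -1.30 and -1.41, from 67.8 and 95.5 normalized counts (71 and 100 reads) in the control. Both 2-fold calls were lost with only the row of the largest mean, at -0.71 and -0.99, where HLA-DPB1 with the guides went from -0.66 to -1.35. HLA-DQA1 was the most abundant by count, with 1072 and 990 with guides 1 and 2, 885 with POU2F3 gRNA and 1126 in the control. CIITA, the class II transactivator, had 94 to 112 in every library. CD74, the invariant chain, had 62.2, 41.2 and 55.4 against 39.2.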
